A study of Mus musculus with 12 samples.

Results

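The genes described here are 9 feedback targets of canonical Wnt signalling: Rnf43, Znrf3, Lgr4, Wif1, Apcdd1, Nkd1, Axin2, Sp5 and Tcf7. They were chosen by name for their place in that pathway, with earlier results of these data known. All 9 were found in a table of 30265 genes, and all 9 were among the 16577 genes with a normalised read count of at least 10 in at least 3 of the 12 libraries. The libraries came from intestinal epithelial cells of C57Bl/6 mice with a Sox9-GFP reporter. The cells had been sorted by flow cytometry into Sox9 High, Sox9 Sublow, Sox9 Negative and Sox9 Low, with 3 libraries (A, B and C) of 12000 cells each. All 4 populations share the strain and the reporter, there was no treatment, and each population is defined by its GFP level alone. The labels do not say how old the mice were, how many were used or whether their cells were pooled. In published work with the reporter, Low cells were enriched for stem cells, Sublow cells for transit progenitors, High cells for enteroendocrine and tuft cells, and Negative cells for differentiated cells without Sox9. Sox9 Low therefore served as the baseline of the main comparisons.

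Wnt ligands bind Frizzled receptors and the co-receptors Lrp5 and Lrp6, which stops a cytoplasmic complex from destroying beta-catenin and lets beta-catenin act with TCF factors on target genes. Many of those target genes code for proteins that act back on the pathway, and so they are used as a readout of signalling as well as being part of its control. In the intestine, Wnt signalling is strongest at the crypt base, where it maintains stem cells, and it weakens along the crypt as cells differentiate.

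The sorted populations differed in Sox9 mRNA as their gates would have it. Sox9 had means of 20262 normalised counts in High, 2084 in Sublow, 604 in Negative and 6601 in Low. Total reads per library were 11.6 M to 17.0 M (M, 1e6), so that 3 reads correspond to between 2.38 and 4.61 normalised counts. The summed level of 6 tuft cell markers was 78721 to 82763 in High, 178 to 448 in Sublow, 87.7 to 183 in Negative and 7435 to 12528 in Low. The 5 stem cell markers summed to 2960 to 8179 in High, 6151 to 31042 in Sublow, 375 to 4136 in Negative and 57042 to 75556 in Low. Olfm4 was most of that sum, with means of 3865 in High, 15675 in Sublow, 1741 in Negative and 60843 in Low. Lgr5 ran the other way between High and Sublow, with means of 760 and 299.6. Of the 5 genes, Lgr5 alone was called there, as higher in High (log2 difference 1.57, limma adjusted p = 0.0102). The 6 markers of stroma and muscle summed to 135 to 168 in High and 133 to 247 in Sublow. In Negative they summed to 278 to 329, above every other library, and in Low to 136 to 158. The 4 endothelial markers summed to 1136 to 1346 in High and 897 to 1256 in Sublow. In Negative they summed to 1288 to 1527 and in Low to 1002 to 1154. The 6 T cell markers summed to 466 to 611 in High and 328 to 597 in Sublow. In Negative they summed to 606 to 681 and in Low to 394 to 474. The 6 Paneth cell markers summed to 487 to 4144 in High and 12346 to 17999 in Sublow. In Negative they summed to 45979 to 119621 and in Low to 18504 to 43378, with none called between Negative and Low. The 6 goblet cell markers summed to 8267 to 12083 in High and 337977 to 586715 in Sublow. In Negative these gave 49642 to 107667 and in Low 139724 to 481426, with none called between Sublow and Low. Their part in the members' levels was not tested. In bulk RNA, fewer cells of a type and less RNA per cell cannot be told apart. The labels do not say whether replicates came from separate mice, so p-values measure the spread between these libraries.

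Most of the 9 genes were lower outside Sox9 Low. The exceptions were Wif1, Nkd1 and Apcdd1 in High, and Lgr4 and Sp5 in both Sublow and Negative, of which Wif1 was higher than in Low and the others were not called. Against Low, 1 member was higher and 6 were lower in High, where 23.6% of all tested genes were called higher and 19.3% lower (limma, adjusted p below 0.05). In Sublow 7 members were lower and 0 higher than in Low, where 13.3% of tested genes were called higher and 10.7% lower. In Negative 7 members were lower and 0 higher than in Low, where 26.8% of tested genes were called higher and 30.3% lower. The median log2 difference from Low over the 9 members was -1.21 in High, -1.19 in Sublow and -2.12 in Negative, beside medians over all tested genes of 0.10, -0.06 and -0.06. Between the other pairs, High had 4 members higher and 3 lower than Negative (28.8% of tested genes higher, 25.8% lower). Sublow had 2 higher and 1 lower than Negative (15.1% higher, 12.7% lower), and High had 2 higher and 4 lower than Sublow (26.7% higher, 25.3% lower). All 9 members differed among the 4 populations in the moderated F test, which called 69.5% of tested genes. Rnf43, Znrf3, Axin2 and Tcf7 were lower than in Low in each of the other 3 populations, a pattern shown by 1.1% of tested genes. Znrf3 alone of the members was also called lower in Negative than in each of the others, as were 8.2% of tested genes. The members were chosen with earlier results of these data known, so their counts beside these shares are a description.

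**Figure D1:**
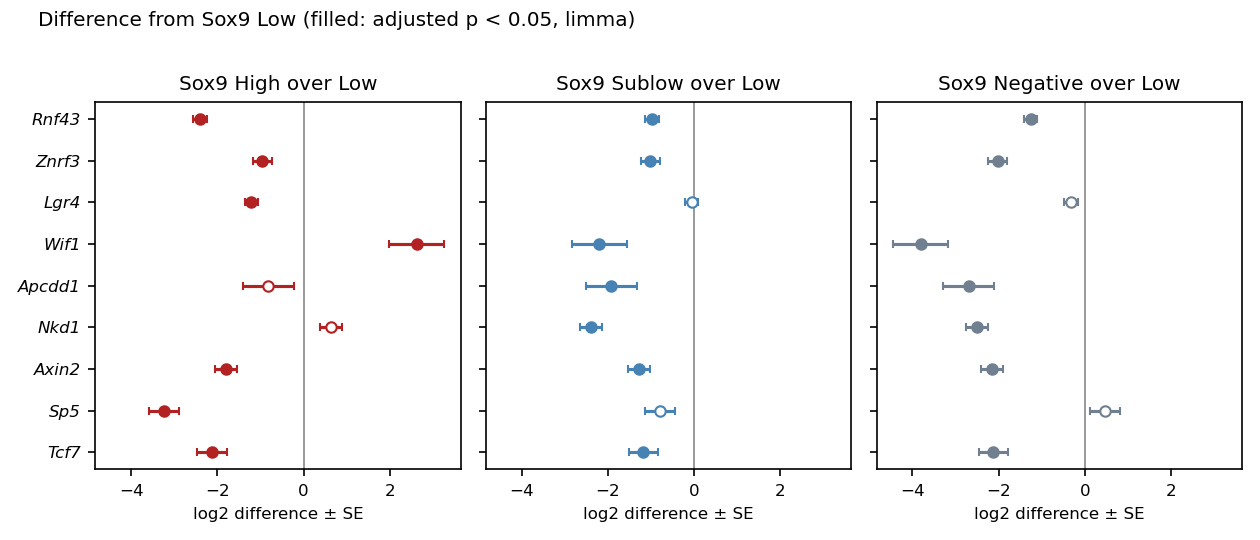
Log2 difference of each member from Sox9 Low (x axis) in Sox9 High, Sublow and Negative (panels), with bars of 1 standard error and filled points for adjusted p below 0.05. Points left of the line are lower than in Low; Wif1 is filled and to the right of it in High, and Lgr4 is open near 0 in Sublow.

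At the receptor level, Rnf43 and Znrf3 code for membrane ubiquitin ligases that remove Frizzled receptors from the cell surface. Both were highest in Low, but they differed in where they were lowest. Rnf43 (chromosome 11, 87662722 to 87735539, plus strand, GRCm38) had 777, 579 and 692 normalised counts in High A, B and C, 1838, 1573 and 2134 in Sublow, 1439, 1799 and 1316 in Negative, and 3745, 3461 and 3606 in Low. High libraries were below all others, Sublow and Negative libraries overlapped, and Low libraries were above all others. Rnf43 was 5.31-fold lower in High than in Low (log2 difference -2.41 ± 0.16 SE, adjusted p = 1.05e-06), and it was also lower in High than in Negative (-1.15, adjusted p = 4.92e-05). Its fall in Sublow was -0.97 and in Negative -1.26 (adjusted p = 0.00141 and 3.94e-05), while Sublow and Negative differed by 0.29 ± 0.16 (adjusted p = 0.194), a difference that was called with every library scaled to the same total (0.57, adjusted p = 0.0247).

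Znrf3 (chromosome 11, 5276324 to 5444847, minus strand) had 463, 458 and 492 normalised counts in High, 417, 341 and 649 in Sublow, 263, 185 and 232 in Negative, and 868, 807 and 1089 in Low. Here Negative libraries were below all others, High lay inside the range of Sublow, and Low was again above all. The log2 difference from Low was -0.96 ± 0.22 in High, -1.01 in Sublow and -2.02 in Negative (adjusted p = 0.00406, 0.00637 and 1.67e-05). Znrf3 was higher in High than in Negative (1.07, adjusted p = 0.00124), the opposite direction to Rnf43. It was also higher in Sublow than in Negative (1.01, adjusted p = 0.00893), a call that was lost when only those 6 libraries were fitted (adjusted p = 0.0811; 0.000383 to 0.0811 over all alternatives). High and Sublow differed by 0.06 ± 0.22 (adjusted p = 0.845).

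Lgr4, a receptor for R-spondins, works against both ligases, since R-spondin bound to it clears Rnf43 and Znrf3 from the membrane. Lgr4 (chromosome 2, 109917647 to 110014257, plus strand) had 1475, 1329 and 1640.5 normalised counts in High, 3365, 2855 and 3695 in Sublow, 2546, 2373 and 3407 in Negative, and 3304, 3375 and 3591 in Low. High stood below every other library, and the other 3 populations overlapped. Lgr4 was 2.32-fold lower in High than in Low (log2 difference -1.21 ± 0.15, adjusted p = 7.27e-05) and lower than in Sublow (-1.15, adjusted p = 5.35e-05). It was also lower in High than in Negative (-0.89, adjusted p = 0.000308), although that call was lost with every library scaled to the same total (-0.40, adjusted p = 0.0751; 3.86e-07 to 0.0751 over all alternatives). The difference from Low was -0.06 ± 0.15 in Sublow (adjusted p = 0.824) and -0.32 ± 0.15 in Negative (adjusted p = 0.0943). The Negative difference was called without Negative replicate C (adjusted p = 0.0171) and under both other scalings, with adjusted p from 0.001 to 0.306 over all alternatives.

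**Figure D2:**
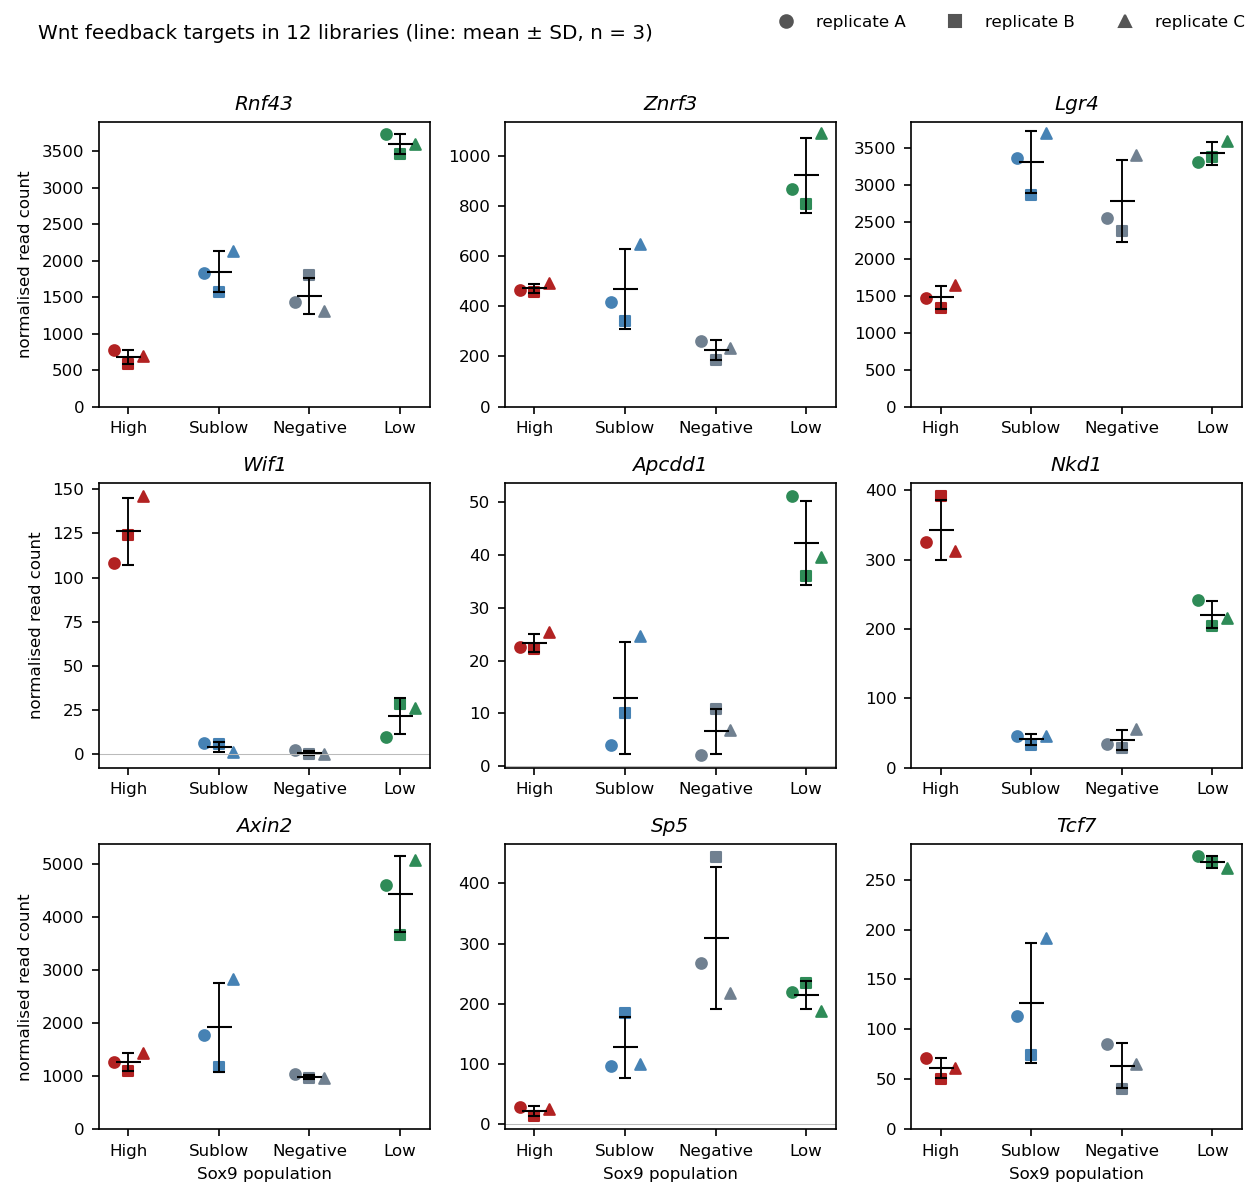
Normalised read counts (y axis, from 0) of the 9 members in the 12 libraries by Sox9 population (x axis), with mean ± SD of 3 libraries and marker shapes for replicates A, B and C. Low is highest for Rnf43, Znrf3, Axin2 and Tcf7, High for Wif1 and Nkd1, and Negative has the highest mean for Sp5.

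The balance between a member and its family partner was compared within libraries, where depth and scaling cancel. A ratio also carries the lengths of both transcripts, so differences between populations are read and not its size. The log2 ratio of Rnf43 over Znrf3 averaged 0.53 ± 0.21 in High, 2.02 ± 0.26 in Sublow, 2.74 ± 0.47 in Negative and 1.98 ± 0.22 in Low (SD, n = 3). It differed among the populations (one-sided exact permutation test over 369600 assignments of libraries, p = 0.00039, adjusted over 4 ratios 0.000779). No High library was above 0.75 and no other library was below 1.72. The log2 ratio of Lgr4 over Lgr5, the R-spondin receptor of crypt stem cells, averaged 0.98 ± 0.21 in High, 3.70 ± 0.90 in Sublow, 5.38 ± 0.55 in Negative and 0.51 ± 0.37 in Low (exact permutation p = 0.00013, adjusted 0.000519). Lgr5 itself had means of 760 ± 162 normalised counts in High, 299.6 ± 204 in Sublow, 67.2 ± 22.9 in Negative and 2476 ± 769 in Low (SD, n = 3). Its log2 difference from Low was -1.68 ± 0.44 in High, -3.25 in Sublow and -5.19 in Negative, all of them called. Axin2 over Axin1 averaged 0.44 ± 0.30 in High, 0.77 ± 0.58 in Sublow, 0.01 ± 0.08 in Negative and 2.05 ± 0.32 in Low (exact permutation p = 0.00175, adjusted 0.00208). Tcf7 over Tcf7l2 averaged -5.13 ± 0.18 in High, -4.07 ± 1.03 in Sublow, -5.41 ± 0.69 in Negative and -2.52 ± 0.11 in Low (exact permutation p = 0.00208, adjusted 0.00208). In these last 2 pairs every Low library was above every other library.

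**Figure D3:**
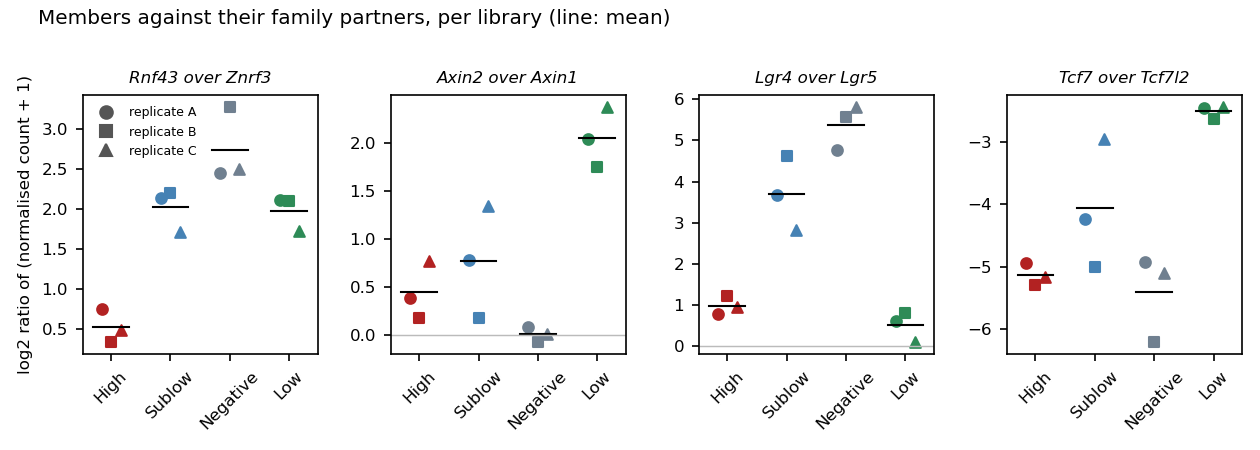
Log2 ratio of (normalised count + 1) of a member over its family partner (y axis) in each library, by Sox9 population (x axis), with lines for means. Rnf43 over Znrf3 is lowest in High, Lgr4 over Lgr5 is highest in Negative, and Axin2 over Axin1 and Tcf7 over Tcf7l2 are highest in Low.

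Among the antagonists, Wif1 and Nkd1 were high in Sox9 High, and Apcdd1 was highest in Low. Wif1 codes for a secreted protein that binds Wnt ligands outside the cell. Wif1 (chromosome 10, 121033960 to 121100650, plus strand) had 108, 124 and 146 normalised counts in High, 6.13, 5.59 and 0.88 in Sublow, 2.11, 0 and 0 in Negative, and 9.80, 28.3 and 26.2 in Low. High was far above all other libraries, and the Negative libraries held 2 reads in all. By summed reads the ratio of High over Low was 5.66 (95% counting interval 4.42 to 7.33), and that of High over Sublow was 31.8 (18.0 to 62.0). With 428 reads in High against 2 in Negative, that ratio was 157, with a counting interval of 43.1 to 1298. Wif1 was called higher in High than in Low (log2 difference 2.63 ± 0.64, adjusted p = 0.00534), Negative (6.43, adjusted p = 2.97e-06) and Sublow (4.83, adjusted p = 4.91e-05), a pattern of 15.6% of tested genes. Wif1 was lower in Negative than in Low (-3.81, adjusted p = 0.000281) and in Sublow than in Low (-2.20, adjusted p = 0.0254), on 12 reads in Sublow against 75 in Low. The Sublow call was lost without Sublow replicate C (adjusted p = 0.0605), without Low replicate B (0.087) or C (0.0907), and when 6 libraries were fitted alone (0.0627); over all alternatives adjusted p ran from 0.000579 to 0.0907.

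Nkd1 codes for a cytoplasmic protein that binds Dishevelled and dampens the signal. Nkd1 (chromosome 8, 88521354 to 88594884, plus strand) had 325, 392 and 312 normalised counts in High, 45.9, 32.4 and 45.7 in Sublow, 33.8, 29.2 and 55.9 in Negative, and 242, 204 and 216 in Low. The High and Low libraries were all several times above the Sublow and Negative libraries, which overlapped. Nkd1 was 8.74-fold higher in High than in Negative (log2 difference 3.13 ± 0.25, adjusted p = 5e-07) and 8.17-fold higher than in Sublow (3.03, adjusted p = 1.14e-06). It was 5.28-fold lower in Sublow than in Low (-2.40, adjusted p = 0.000114) and 5.65-fold lower in Negative than in Low (-2.50, adjusted p = 1.06e-05). Every High library was above every Low library, but the difference of 0.63 ± 0.25 missed the threshold (adjusted p = 0.061). It passed in 8 of 22 alternatives, among them edgeR (adjusted p = 0.0272) and DESeq2 (0.00892), and adjusted p ran from 0.00598 to 0.185 over them.

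The High libraries in which Wif1 and Nkd1 were high also held the markers of other cell types. All 6 tuft markers and all 6 enteroendocrine markers were called higher in High than in Low. The enteroendocrine markers summed to 327845 to 534267 in High, 1948 to 6082 in Sublow, 395 to 1264 in Negative and 35550 to 71825 in Low. Of 6 markers of leukocytes other than T cells, 4 passed the filter, and Ptprc (CD45) alone was called higher in High than in Low, by 4.78 ± 0.25 on the log2 scale, while Cd68 and Itgam were called lower. That list summed to 1975 to 3410 in High, 130 to 253 in Sublow, 112 to 152 in Negative and 152 to 269 in Low. In High the sum was mostly Ptprc, with a mean of 2469 normalised counts beside 2515 for the whole list. Means in High and Low were 25.6 and 52.4 for Cd68, 11.5 and 46.3 for Itgam, and 6.18 and 11.7 for Csf1r. The part of any cell type in the levels of Wif1 and Nkd1 was not tested.

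Apcdd1 codes for a membrane protein that inhibits Wnt signalling at the receptor. It was read little, with 79 reads over the High libraries, 41 over Sublow, 15 over Negative and 139 over Low. Wif1 had 428, 12, 2 and 75 reads in the same order. Apcdd1 had 22.6, 22.1 and 25.3 normalised counts in High, 4.08, 10.1 and 24.6 in Sublow, 2.11, 10.8 and 6.85 in Negative, and 51.2, 36.0 and 39.6 in Low. Low was above all other libraries and High was above all Negative libraries, while Sublow ran from the Negative level to the High level. The log2 difference from Low was -2.70 ± 0.59 in Negative (adjusted p = 0.00181) and -1.92 ± 0.59 in Sublow (adjusted p = 0.0324). In High it was -0.82 ± 0.59 (adjusted p = 0.285), and it was called when those 6 libraries were fitted alone (0.0279). The Sublow call was lost in 8 of 21 alternatives, among them without Sublow replicate A (adjusted p = 0.119) or B (0.0828) and without Low replicate A (0.107), B (0.0608) or C (0.0783), with 0.00501 to 0.119 over all alternatives. Apcdd1 was higher in High than in Negative (1.88, adjusted p = 0.016), a call lost without Negative replicate A (0.0704) and under quantile scaling (0.173), the range being 0.00352 to 0.173.

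Inside the cell, Axin2 is the inducible scaffold of the beta-catenin destruction complex, and Sp5 (a zinc-finger factor) and Tcf7 (TCF1, an HMG-box factor that binds beta-catenin) act in the nucleus. The 250 bases upstream of the RefSeq starts of Sp5 and Axin2 (GRCm38.p6, plus strand) are shown because the genes were ordered differently over the populations. Capitals mark matches to the core of the TCF motif, searched on both strands as the letters CTTTG followed by 2 bases that are each A or T. The Sp5 window is chr2:70474673-70474922 and the Axin2 window is chr11:108920099-108920348.
Sp5: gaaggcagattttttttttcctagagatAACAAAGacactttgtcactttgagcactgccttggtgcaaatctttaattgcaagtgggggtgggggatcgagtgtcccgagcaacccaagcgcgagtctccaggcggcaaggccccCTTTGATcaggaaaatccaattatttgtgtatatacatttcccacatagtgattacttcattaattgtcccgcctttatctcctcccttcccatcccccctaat
Axin2: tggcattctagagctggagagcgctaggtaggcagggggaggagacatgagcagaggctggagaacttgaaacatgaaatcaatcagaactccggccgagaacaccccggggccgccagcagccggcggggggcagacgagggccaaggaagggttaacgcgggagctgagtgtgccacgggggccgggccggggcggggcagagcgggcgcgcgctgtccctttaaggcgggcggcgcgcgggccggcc

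Of 9 members, 7 had an upstream window in the RefSeq table. The Sp5 window held 2 matches, AACAAAG on the plus strand at -222 (a minus-strand match) and a plus-strand match, CTTTGAT, at -104, both positions being the first base counted from the start. The windows of Axin2, Lgr4, Wif1, Nkd1, Rnf43 and Tcf7 held none, which says only that these letters are not in these bases. Over all 32817 windows of the table, 14.8% held at least 1 match and 1.43% at least 2. A match is a description of letters, and binding was not measured.

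Axin2 (chromosome 11, 108920349 to 108950783, plus strand) had 1255, 1090.1 and 1436 normalised counts in High, 1769, 1163 and 2822 in Sublow, 1032, 964 and 955 in Negative, and 4588, 3652 and 5058 in Low. Low was above all other libraries, High was above all Negative libraries, and Sublow ran from inside the High range to well above it. The log2 difference from Low was -1.81 ± 0.25 in High, -1.29 ± 0.25 in Sublow and -2.16 ± 0.25 in Negative (adjusted p = 0.000148, 0.00374 and 2.59e-05). In Negative that is a 4.46-fold lower level. High and Negative differed by 0.35 ± 0.25 (adjusted p = 0.269), which was called with every library scaled to the same total (0.84, adjusted p = 0.0231) and with 6 libraries alone (0.0435). Axin2 was higher in Sublow than in Negative (0.87, adjusted p = 0.0267), a call lost without Sublow replicate A (0.0625) or C (0.0815), without Negative replicate B (0.0818) or C (0.0642), and with 6 libraries alone (0.108), the range being 0.00159 to 0.108. The exons of Axin2 share 209 bases with an antisense gene, Gm11670, and whether counting used strand is not stated in the labels. Axin1, the constitutive scaffold, had log2 differences from Low of -0.20 ± 0.11 in High, 0.00 ± 0.11 in Sublow and -0.11 ± 0.11 in Negative, none of them called. The Negative difference of Axin1 was called under both other scalings (-0.67 with the same total, adjusted p = 0.000416, and -0.39 with quantile scaling, adjusted p = 0.00966).

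Tcf7 (chromosome 11, 52252371 to 52283014, minus strand) had 71.3, 50.7 and 61.7 normalised counts in High, 113, 73.8 and 192 in Sublow, 85.5, 40.0 and 65.0 in Negative, and 273, 268 and 262 in Low. The Low libraries differed by at most 1.05-fold and lay above all others, and High lay inside the range of Negative. The log2 difference of Tcf7 from Low was -2.12 ± 0.34 in both High and Negative (adjusted p = 0.000356 and 0.000203). High and Negative were not called different, except under quantile scaling (-0.74, adjusted p = 0.0451). The fall in Sublow was -1.19 (adjusted p = 0.0242), and it was lost without Sublow replicate A (0.0639) or B (0.102) and without any 1 of the Low libraries (0.0598 to 0.0722), the range over all alternatives being 0.00295 to 0.102. Tcf7 was lower in High than in Sublow (-0.94, adjusted p = 0.0346), which was lost without High replicate B (0.109) or C (0.0716), without Sublow replicate A (0.0664) or C (0.136), and in 2 other alternatives, the range being 0.00185 to 0.136. Tcf7l2, the main TCF factor of intestinal epithelium, went the other way, with a log2 difference from Low of 0.49 ± 0.17 in High (adjusted p = 0.0355) and 0.77 ± 0.17 in Negative (adjusted p = 0.00202). The High call was lost in 6 of 22 alternatives, namely without any 1 of the High libraries A, B and C (0.0906, 0.0579 and 0.0946), without Low replicate A (0.0859) or C (0.105), and without the filter (0.0563), the range over all alternatives being 0.00469 to 0.105. With every library scaled to the same total its difference was 0.41 in High and 0.21 in Negative, and the Negative call was lost (adjusted p = 0.253). The Negative call was also lost under quantile scaling (0.32, adjusted p = 0.104).

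Sp5 was the one member with its highest mean in Negative. Sp5 (chromosome 2, 70474923 to 70477729, plus strand) had 28.9, 13.8 and 25.3 normalised counts in High, 97.0, 186 and 101 in Sublow, 268, 443 and 218 in Negative, and 219, 235 and 189 in Low. High was below every other library, Sublow lay below Low, and Negative overlapped with Low. The difference of Sublow from Low was -0.80 ± 0.34 and was not called (adjusted p = 0.114), but it was with every library scaled to the same total (-1.07, adjusted p = 0.0252). Sp5 was 9.45-fold lower in High than in Low (log2 difference -3.24 ± 0.34, adjusted p = 2.07e-05) and 13.1-fold lower in High than in Negative (-3.71, adjusted p = 1.66e-06). Negative and Low differed by 0.47 ± 0.34 (adjusted p = 0.262), with the sign turned under scaling to the same total (-0.09). Sp5 was lower in Sublow than in Negative (-1.27, adjusted p = 0.0199), a call lost without Sublow replicate A (0.0674) or C (0.0694), without Negative replicate B (0.0893) and with 6 libraries alone (0.0843), the range being 0.00184 to 0.0893. Rnf43, Lgr4 and Sp5 were thus called lower in High than in each of the other populations, a pattern of 8.84% of tested genes.

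Levels of different genes were compared per kb of exon, using the union of annotated exons. In Low the order was Axin2 with 805 ± 130 normalised counts per kb, Lgr4 with 582 ± 25.5, Rnf43 with 549 ± 21.7, Znrf3 with 117 ± 18.8, Tcf7 with 102 ± 2.28, Sp5 with 102 ± 11.1, Nkd1 with 48.4 ± 4.25, Wif1 with 8.81 ± 4.16 and Apcdd1 with 3.28 ± 0.62 (SD, n = 3). Lgr4 and Rnf43 lay within their spread of each other, as did Znrf3, Tcf7 and Sp5. In High the order per kb was Lgr4 with 252 ± 26.5 and Axin2 with 229 ± 31.4, which overlapped, then Rnf43 with 104 ± 15.2, Nkd1 with 75.2 ± 9.40, Znrf3 with 59.7 ± 2.31, Wif1 with 52.0 ± 7.82, Tcf7 with 23.4 ± 3.93, Sp5 with 10.8 ± 3.75 and Apcdd1 with 1.81 ± 0.14. Nkd1 and Wif1 thus stood above Tcf7 and Sp5 in High and below them in Low. In Sublow and Negative, Lgr4 was the member with the highest mean per kb, with 562 ± 71.9 in Sublow and 472 ± 94.2 in Negative.

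**Figure D4:**
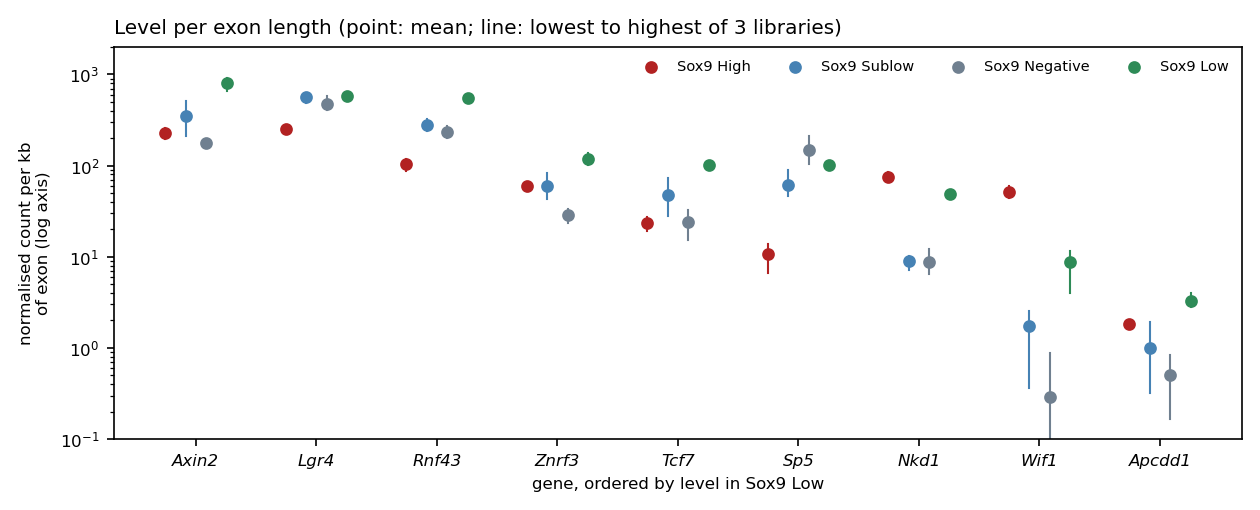
Normalised count per kb of exon (y axis, log axis) for each member, ordered by its level in Sox9 Low, with a point for the mean and a line from the lowest to the highest of 3 libraries. The line of Wif1 in Negative ends at the lower edge because 2 of its libraries are at 0; Lgr4 spans the narrowest range of populations and Wif1 the widest.

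For Axin2, Tcf7, Apcdd1 and Znrf3 the ratio of the highest to the lowest library was largest in Sublow. For Sp5 the SD was 39.1% of the mean in Sublow, close to 38.1% in Negative. Axin2 varied 2.43-fold between the lowest and highest Sublow library, Tcf7 2.60-fold, Apcdd1 6.02-fold and Znrf3 1.90-fold. Rnf43, Znrf3, Lgr4, Axin2 and Tcf7 were highest in Sublow C and lowest in Sublow B, an order that 26.8% of tested genes had. The stem markers had the same order, with summed levels of 14279 in Sublow A, 6151 in B and 31042 in C, and the enterocyte markers the reverse, with 169652, 311823 and 63277. The cycling markers had the order of the stem markers, with 27728, 19036 and 32982. Sp5 was highest in Sublow B, and Wif1 was lowest in Sublow C. The part of these markers in the members' spread was not tested.

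**Figure D5:**
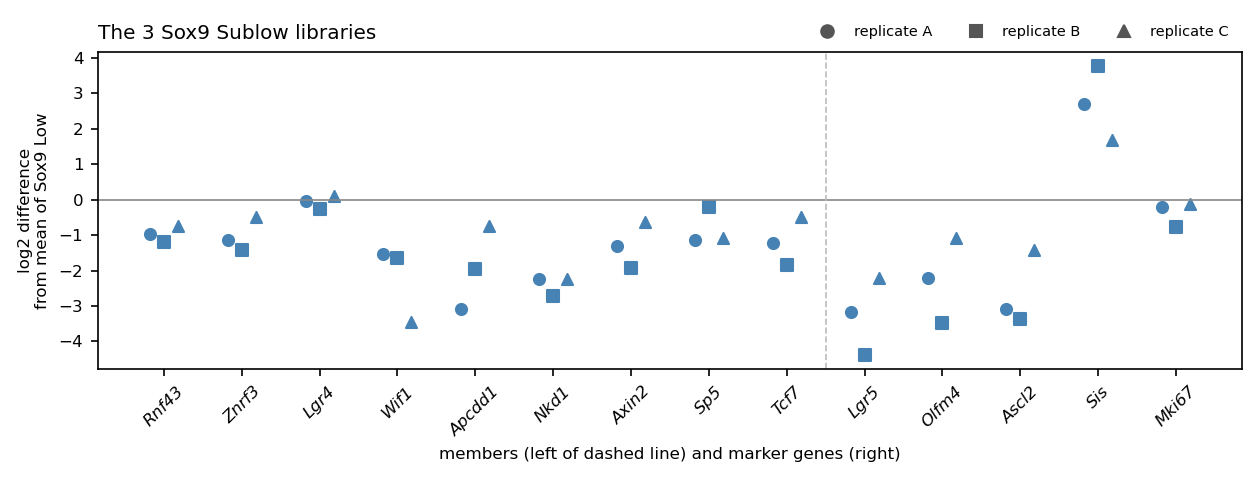
Log2 difference of each Sox9 Sublow library from the mean of the Low libraries (y axis) for the members (left of the dashed line) and for 5 marker genes (right). Axin2, Tcf7 and Znrf3 follow the order of Lgr5 and Olfm4, highest in C and lowest in B, while the enterocyte gene Sis is highest in B.

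Other genes of the pathway were taken from lists written with earlier results of these data known. Their counts stand beside the shares of all tested genes given above for the same comparisons, which were 23.6% higher and 19.3% lower in High than in Low, 13.3% higher and 10.7% lower in Sublow, and 26.8% higher and 30.3% lower in Negative. With every library scaled to the same total, the shares in Negative were 14.7% higher and 48.6% lower. Of 12 measured crypt genes that respond to Wnt elsewhere, 2 were higher and 7 lower in High than in Low, 0 higher and 8 lower in Sublow, and 0 higher and 10 lower in Negative, with medians of -1.16, -1.87 and -3.74. The 2 that rose in High were Sox9, whose reporter set the gates, and Prox1, a homeobox factor (log2 difference 2.22 ± 0.32). Sox9 is also counted among the lower genes in Sublow (-1.75) and Negative (-3.50), which the gates fixed in advance. Of the other lower calls in Sublow, that of Ascl2 was lost in 6 of 22 alternatives, with adjusted p up to 0.109. That of Cd44 was lost in 5 (up to 0.101) and that of Ephb2 in 3 (up to 0.0643). The lower call of Ephb3 in High was lost in 2 of 22. Ascl2, a stem cell factor, had a log2 difference from Low of -6.05 ± 0.78 in Negative, and Ephb3, a guidance receptor of the crypt, one of -3.14 ± 0.30. Lef1, a TCF relative, was not called in any comparison, with differences from Low of 0.12 in High, -0.02 in Sublow and 0.11 in Negative.

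Of 11 measured receptors, 1 was higher and 2 lower in High than in Low, 2 higher and 2 lower in Sublow, and 2 higher and 5 lower in Negative. In Sublow both higher calls, of Fzd4 and Fzd5, were lost with the same total (adjusted p = 0.0593 and 0.166), which gave 0 higher and 5 lower. The lower calls of Fzd1 and Fzd7 in Sublow were each lost in 7 of 22 alternatives, and that of Fzd1 in Negative in 4. The higher call of Fzd5 in Negative was lost with the same total (adjusted p = 0.18) and with quantile scaling (0.115). With the same total the Negative count was 1 higher and 6 lower. In Negative, Fzd4 was higher than in Low by 2.43 ± 0.39 on the log2 scale (adjusted p = 0.000227), while Fzd3 had a difference of -1.90 (adjusted p = 0.00751). Fzd3 was higher in High than in Low by 2.43 ± 0.52 on the log2 scale (adjusted p = 0.00252). The co-receptors Lrp5 and Lrp6 were not called in any comparison, with differences from Low between 0.04 and 0.28. That depended on the scaling: with the same total Lrp5 was called lower in Negative than in Low (-0.50, adjusted p = 0.00519; with quantile scaling -0.41, 0.0159), and Lrp6 turned to -0.29 there without a call. Both were then called higher in High than in Negative (adjusted p = 0.00257 for Lrp5 and 0.0347 for Lrp6; with quantile scaling 0.011 and 0.0279). Among 8 destruction complex genes, 2 were higher and 0 lower in High than in Low, 1 higher and 1 lower in Sublow, and 3 higher and 1 lower in Negative. With the same total the Negative count was 1 higher and 5 lower, and with quantile scaling 1 higher and 2 lower. The Sublow count was 0 higher and 1 lower with the same total, and 1 higher and 0 lower with quantile scaling. In Sublow the higher call of Gsk3a was lost in 4 of 22 alternatives and the lower call of Btrc in 8. The kinase gene Gsk3a was higher in Negative than in Low by 1.06 ± 0.16 on the log2 scale (adjusted p = 0.000141), while the rises of Apc (0.39) and Gsk3b (0.37) turned to -0.17 and -0.19 with every library scaled to the same total. Among 12 transducers and cofactors, 7 were higher and 0 lower in High than in Low, 1 higher and 1 lower in Sublow, and 5 higher and 2 lower in Negative. With the same total the Negative count was 0 higher and 5 lower, and with quantile scaling 3 higher and 5 lower, while the High count was 6 higher and 0 lower with the same total. The Sublow count was 0 higher and 2 lower with the same total, and 1 higher and 2 lower with quantile scaling. In High the call of Dvl3 was lost in 5 of 22 alternatives and that of Dvl2 in 3. In Sublow the lower call of Dvl2 was lost in 4 and the higher call of Ctnnbip1 in 3. Dvl1, which codes for a Dishevelled protein, rose by 0.90 ± 0.16 on the log2 scale in High, and Ctnnbip1, an inhibitor of beta-catenin, by 0.98 ± 0.17. Tcf7l1, a TCF factor that mostly represses, was higher in High than in Low by 1.45 ± 0.28 on the log2 scale (adjusted p = 0.00145).

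Of 17 other antagonists, 9 passed the filter, and 3 were higher and 0 lower in High than in Low, 0 higher and 1 lower in Sublow, and 0 higher and 1 lower in Negative (3 higher and 1 lower with quantile scaling). With quantile scaling the High count was 2 higher and 0 lower. The higher call of Dkk1 in High was lost in 5 of 21 alternatives (adjusted p up to 0.102), and that of Kremen1 in 2 of 22 (up to 0.0797). Dkk3, a secreted protein of the Dickkopf family, was 2.22 ± 0.61 higher in High than in Low on the log2 scale (adjusted p = 0.011), with a mean of 33.9 normalised counts in High and 7.88 in Low. Sfrp5, a secreted Wnt binder, had means of 537 normalised counts in High, 144 in Sublow, 27.4 in Negative and 430 in Low. Its log2 difference of Negative from Low was -4.32 ± 0.63 (adjusted p = 0.000103). It was also the 1 lower call in Sublow (-1.86, adjusted p = 0.0483), which was lost in 13 of 22 alternatives, with adjusted p from 0.012 to 0.194 over them. Nkd2, the relative of Nkd1, was not called in any comparison (under quantile scaling it was, in High against Negative, -0.94, adjusted p = 0.0118), with means of 39.7 normalised counts in High, 34.1 in Sublow, 46.4 in Negative and 50.1 in Low. Rspo4 was the one R-spondin ligand that passed the filter, and it was higher in High than in Low by 1.85 ± 0.45 on the log2 scale (adjusted p = 0.00543), with normalised means of 44.8 in High and 12.1 in Low. Rspo2 and Sfrp4 did not pass the filter and had 0 reads in all 3 High libraries, but they were hardly read elsewhere either. Over the libraries of Sublow, Negative and Low, Rspo2 had 3, 8 and 4 reads and Sfrp4 had 1, 5 and 1.

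For each member, the 3 genes with the highest Pearson correlation over the 12 libraries are given as a description, since the points share their sorted populations. Nkd1 was most like the tuft cell kinase gene Dclk1 (r = 0.987), Dgki (0.986) and Hpgds (0.984). Wif1 was most like Kif1a (r = 0.980), Cfap44 (0.977) and Gpr6 (0.976). Axin2 was most like Rgmb (r = 0.988), Zbtb38 (0.987) and the Notch receptor gene Notch1 (0.977), and Tcf7 like Mycl (0.990), Fastkd2 (0.984) and Nrtn (0.980). Rnf43 was most like Afap1l1 (r = 0.982), Hook1 (0.969) and Jaml (0.966), and Znrf3 like Tarbp1 (0.981), Matr3 (0.980) and Kcnq1 (0.979). Lgr4 was most like the transferrin receptor gene Tfrc (r = 0.989), Acss1 (0.986) and Serinc3 (0.981), and Sp5 like Bcl2l11 (0.969), Fam13a (0.963) and Tnfsf10 (0.963). Apcdd1 had the lowest such values, with Zbed5 (r = 0.933), Repin1 (0.920) and Actr6 (0.919). Among the members themselves, Axin2 and Tcf7 were the most alike pair (r = 0.951), followed by Axin2 and Znrf3 (0.914) and by Wif1 and Nkd1 (0.882). Rnf43 and Znrf3 had r = 0.471, and Sp5 ran against Wif1 (r = -0.775) and Nkd1 (-0.643).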

How the data were processed

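RNA from 12 libraries, 3 for each of 4 Sox9-GFP gates, was prepared per the labels by ribosomal depletion of total RNA, made into libraries with a Clontech Pico kit (SMARTer, v2) and read single-end. The authors deposited 1 table of normalised values per gene and library, used here as a signal: every value (100% in each library, tolerance 0.01) was a whole multiple of 1 step, so whole reads could be recovered. The sources used here name no aligner, counting program, genome build or annotation for it.

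Values were tested as log2(value + 1) with limma 3.58.1 in R 4.3.3 (trend, 1 fit of 12 libraries, prior degrees of freedom 4.1), with a filter of at least 10 in at least 3 libraries and Benjamini-Hochberg adjustment over all 16577 genes tested. On recovered counts, edgeR 4.0.16 called 7357 and DESeq2 1.42.0 called 7714 genes for High against Low, beside 7110. Ratios of summed reads carry 95% intervals for counting error only. The fit and the exact test were tested on simulated data. Exon lengths and gene positions came from the reference annotation (GRCm38), and upstream sequences from RefSeq (GRCm38.p6). Of 30265 gene symbols, 30146 matched a separate reference list of current and older symbols. All 9 members are named whatever their values, with the 3 genes most correlated with each (predicted genes and other members left out), and other genes only from the lists or as family partners. Members and lists were chosen with earlier results of these data known. Alternatives were a replicate block, pseudocounts of 0.5 and 5, no filter, a mean of at least 50, 2 other scalings, edgeR, DESeq2, 6 libraries alone, and leaving out each library. Replicate letters were left out, as the labels do not say what they share.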

Additional observations from a re-analysis of the deposited data

How the results depend on the processing

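Of 54 tests of members, 37 were called, 28 of them under every alternative, and no called difference changed direction. Scaling moved many differences: with every library scaled to the same total, the median log2 difference of all tested genes moved by -0.268 for Sublow over Low, -0.55 for Negative over Low, 0.478 for High over Negative, 0.276 for Sublow over Negative and 0.197 for High over Sublow, and quantile scaling moved it by -0.175 for High over Negative and -0.134 for High over Sublow. The share of called genes that were higher was then 28.6% in place of 55.3% for Sublow over Low, 23.3% in place of 46.9% for Negative over Low, 74.1% in place of 52.8% for High over Negative, 86.3% in place of 54.4% for Sublow over Negative and 63.2% in place of 51.3% for High over Sublow; quantile scaling gave 64.6% for Sublow over Negative. Differences that were not called changed sign for Sp5 in Negative over Low (-0.0883, same total), Nkd1 in Sublow over Negative (-0.0916, quantile scaling) and Tcf7 in High over Negative (0.0001 with a pseudocount of 0.5, 0.48 with the same total).

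The counts for Sublow against Negative moved most. Its 3 calls of members became 6 with the same total and 0 with only its 6 libraries fitted (4 with edgeR, 4 with DESeq2), where 46 genes were called in place of 4597; the fit of 6 libraries alone called 2473 genes for Sublow over Low in place of 3979. Leaving out each library in turn gave 1 to 5 members and 1729 to 6239 genes for Sublow over Negative, and 4 to 7 members and 2500 to 5603 genes for Sublow over Low. In the same runs the uncalled log2 differences ranged from -0.142 to 0.0436 for Lgr4 in Sublow over Low, -0.0887 to 0.368 for Nkd1 in Sublow over Negative, -0.29 to 0.24 for Tcf7 in High over Negative, and -0.14 to 0.32 for Znrf3 in High over Sublow. The causes were not tested.

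With the replicate letter as a block, 51 of 54 member tests kept their call. Lgr4 in Negative over Low (adjusted p = 0.0219), Tcf7 in Sublow over Negative (0.0224) and Axin2 in High over Sublow (0.0351) were then called, and the calls of genes rose to 8027 for High over Low and 6030 for Sublow over Negative. Same-letter libraries deviated together with correlations of 0.0521 to 0.341 over 18 pairs, and 12 of 12 libraries correlated best with their own letter. Different letters averaged -0.0781. That value is no separate baseline, since deviations from a population's mean sum to 0 over its 3 libraries. The pattern is a hint from the data, not the design. At depths of 11.6 M to 17.0 M reads, Wif1 and Apcdd1 in Sublow and Negative rested on 2 to 41 reads per population.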
